A study of Saccharomyces cerevisiae with 4 samples.

Results

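The 2 UVDE-seq libraries compared here were made from *rad16*Δ and WT yeast collected at 0 hr after 600 J/m2 of UVC light, and they are 2 of the 4 libraries of the series. They were taken by their strain and treatment labels, and the reads of each were described at all 16 dinucleotides. The *rad16*Δ strain was MP072, in which *TRP1* replaces *RAD16* and *HIS3* interrupts *TRP1* at its own locus. The WT strain was BY4741, which carries neither insertion. Both are haploid *MATa* strains with the same deletions in *HIS3*, *LEU2*, *MET15* and *URA3*, so they differ at the *TRP1* and *HIS3* markers as well as at *RAD16*. The unirradiated (No UV) *rad16*Δ and WT libraries are given beside the irradiated ones as the background. Each strain and treatment had 1 library, so a difference between strains has no replicate check and no test was run. The 95% intervals cover counting error only and treat each read as a separate molecule, although the libraries were amplified by PCR and carry no molecular identifiers.

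UVC light joins neighboring pyrimidines, mostly as cyclobutane pyrimidine dimers (CPDs) and as 6-4 photoproducts (6-4PPs). 6-4PPs form best at TC, with the thymine on the 5′ side. In UVDE-seq, photolyase first reverses CPDs, and UV DNA endonuclease (UVDE) then nicks the DNA beside the lesions that are left. A read from such a nick is taken to mark a dinucleotide with a non-CPD lesion. The counts do not show how completely CPDs were reversed in each library. Rad16 works with Rad7 in global genomic nucleotide excision repair (GG-NER), the branch that searches the whole genome, untranscribed DNA included, for UV lesions. Its gene, YBR114W, lies on the forward strand of chromosome II at positions 467248 to 469620 (R64). At 0 hr the cells were given no time for repair, so this comparison addresses the lesions as they stood right after irradiation.

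The *rad16*Δ library held 24921495 reads and the WT library 17981153 reads, a ratio of 1.39. The lowest count at any dinucleotide was 179760 reads in *rad16*Δ and 118501 reads in WT yeast, both at GG. All 16 dinucleotides had more reads in *rad16*Δ yeast, by 1.24 (TT) to 1.69 (CG) times. Because the libraries were pooled by volume before sequencing, such read ratios include the amount of each library, and shares of the library total were compared instead. The libraries also carried different barcoded adaptors, shown because strain and barcode cannot be told apart. The whole barcode is in capitals.
*rad16*Δ 0 hr UV: ATCGCGAT
WT 0 hr UV: TTCGTGAT

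The irradiated strains had nearly the same pooled share of dipyrimidine (Dipyr) reads but divided them differently. Reads at TC made up more of the *rad16*Δ library and reads at TT made up more of the WT library. TC, the main 6-4PP sequence, took 31.5% of the *rad16*Δ reads (95% Wilson interval 31.49%–31.52%) and 29.4% of the WT reads (29.33%–29.38%). The ratio of the shares, *rad16*Δ over WT, was 1.07 (95% Poisson interval 1.072–1.074). TT took 26.2% of the *rad16*Δ reads and 29.4% of the WT reads, a ratio of 0.893 (0.892–0.894). TC was thus the most frequent dinucleotide in *rad16*Δ yeast, whereas TT held that place in WT yeast by a small margin. CC took 6.25% of the *rad16*Δ reads and 5.86% of the WT reads (ratio 1.07, 1.065–1.070). CT took 5.51% of the *rad16*Δ reads and 5.58% of the WT reads (ratio 0.989, 0.986–0.991). The 4 Dipyr sequences together made up 69.5% of the *rad16*Δ library and 70.2% of the WT library, a ratio of 0.990 (0.990–0.991). The differences at TC and TT, of 2.15 and -3.16 percentage points (*rad16*Δ minus WT), ran in opposite directions, and the pooled share differed by -0.679 points.

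**Figure D1:**
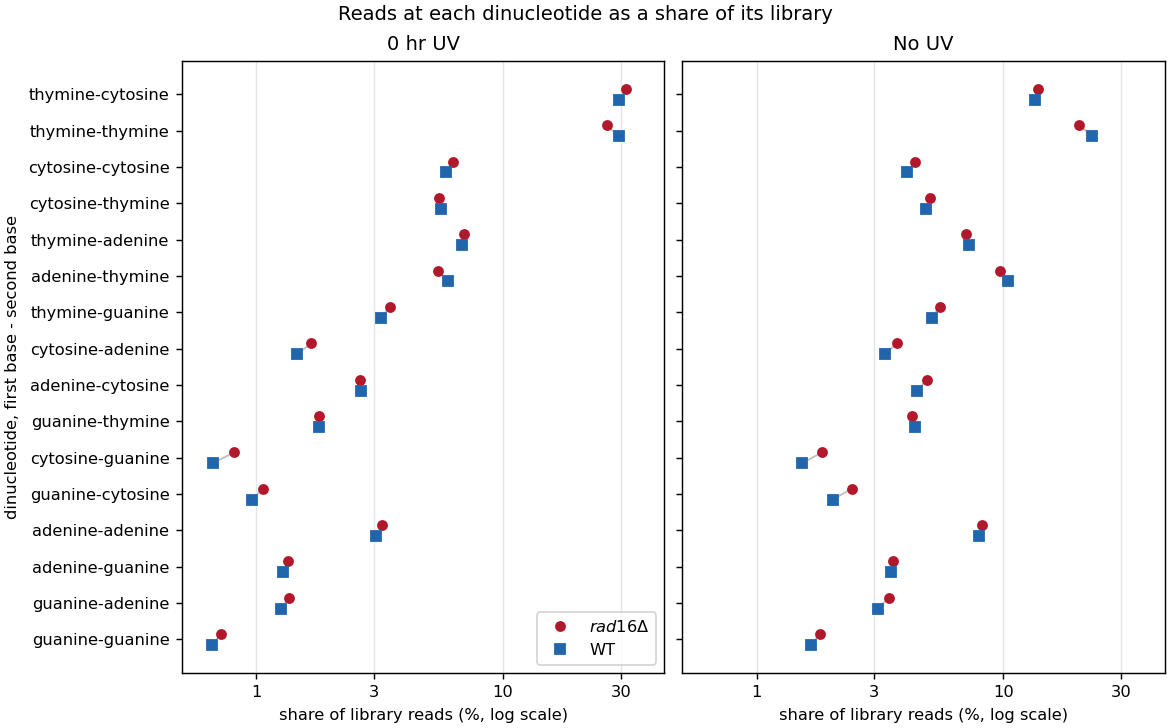
Share of library reads (%, log scale) at each of the 16 dinucleotides, named by first and second base, in *rad16*Δ (red circles) and WT yeast (blue squares), for the 0 hr UV libraries (left) and the No UV libraries (right), with 1 library per point. After UV, thymine-cytosine held 31.5% in *rad16*Δ and 29.4% in WT yeast, and thymine-thymine held 26.2% in *rad16*Δ and 29.4% in WT yeast.

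TA, the sequence of the atypical thymine-adenine photoproduct, held almost equal shares of both irradiated libraries. It took 6.94% of the *rad16*Δ reads (6.93%–6.95%) and 6.85% of the WT reads (6.83%–6.86%), a ratio of 1.01 (1.012–1.017), and had rank 3 in both. In the No UV libraries TA took 7.08% of the *rad16*Δ reads and 7.26% of the WT reads, so the order of the strains was the opposite there. AT, which like TA is its own reverse complement, took 5.45% of the *rad16*Δ reads and 5.96% of the WT reads (ratio 0.915, 0.913–0.918). There were therefore 1.27 TA reads for each AT read in the *rad16*Δ library (1.271–1.276) and 1.15 in the WT library (1.147–1.152), a ratio between strains of 1.11 (1.104–1.112). The unirradiated libraries had 0.733 TA reads per AT read in *rad16*Δ and 0.697 in WT yeast, a ratio of 1.05. Set against the Dipyr sequences, TA had 0.220 reads per TC read in the *rad16*Δ library and 0.233 in the WT library. Per TT read it had 0.265 in the *rad16*Δ library and 0.233 in the WT library. Whether TA was higher or lower in *rad16*Δ yeast thus depended on the sequence it was compared with.

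Across the 16 dinucleotides, the ratio of shares lay between 0.893 (TT) and 1.22 (CG). It was above 1 at 11 dinucleotides and below 1 at 5, and its interval left out 1 at 15 of the 16. The exception was GT, with 1.79% of the reads in each library and a ratio of 0.998 (0.994–1.003). Of the dinucleotides outside the Dipyr sequences, TA, AT and the purine pairs, CG and CA had the highest ratios. CG took 0.814% of the *rad16*Δ reads and 0.667% of the WT reads (ratio 1.22, 1.212–1.229), and CA took 1.67% of the *rad16*Δ reads and 1.47% of the WT reads (ratio 1.14, 1.133–1.145). AC and GT had the lowest. AC took 2.63% of the *rad16*Δ reads and 2.66% of the WT reads (ratio 0.988, 0.985–0.992). TG and GC lay between these, with ratios of 1.08 and 1.11. The reverse complements of the Dipyr sequences, which hold purines only, had higher shares in the *rad16*Δ library as well. AA took 3.24% of the *rad16*Δ reads and 3.07% of the WT reads (ratio 1.06, 1.052–1.059), and GA took 1.36% of the *rad16*Δ reads and 1.26% of the WT reads (ratio 1.08, 1.079–1.091). AG took 1.34% of the *rad16*Δ reads and 1.28% of the WT reads (ratio 1.05, 1.042–1.053), and GG took 0.721% of the *rad16*Δ reads and 0.659% of the WT reads (ratio 1.09, 1.087–1.103).

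The second base of the dinucleotide separated the strains more than the first did. It is the 3′ base if the deposited dinucleotides are written from 5′ to 3′, which the sources used here do not state and which is assumed throughout. All 4 dinucleotides ending in T had ratios below 1, from 0.893 at TT to 0.998 at GT. All 8 ending in a purine had ratios above 1, and of the 4 ending in C only AC was below 1. These sides of 1 hold for shares of the library total. Scaled by the median read ratio, the ratio was 0.955 at TA, 0.994 at AA and 0.987 at AG. Scaled by GG, GC and CG reads, TC (0.943), CC (0.939) and GC (0.975) were below 1 as well. The dinucleotides ending in T stayed below 1 under both scalings. Dinucleotides ending in T made up 39.0% of the *rad16*Δ reads and 42.7% of the WT reads, and those ending in C made up 41.4% of the *rad16*Δ reads and 38.8% of the WT reads. By first base, T led 68.2% of the *rad16*Δ reads and 68.8% of the WT reads, a difference of less than 1 point. Reads at C over reads at T as the second base were compared after each first base. After T, this was TC over TT, at 1.200 in the *rad16*Δ library (1.199–1.202) and 0.998 in the WT library (0.997–1.000), a ratio of 1.20. After C it was CC over CT, at 1.13 in *rad16*Δ and 1.05 in WT yeast, a ratio of 1.08. After A it was AC over AT, at 0.482 in *rad16*Δ and 0.446 in WT yeast, also a ratio of 1.08. After G it was GC over GT, at 0.593 in *rad16*Δ and 0.533 in WT yeast, a ratio of 1.11. C was thus more frequent relative to T in *rad16*Δ yeast after all 4 first bases, including the purines, where no Dipyr sequence is formed.

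The comparison of C with T as second base ran in the same direction without UV. In the No UV libraries, the *rad16*Δ over WT ratio of C to T as second base was 1.16 after T, 1.03 after C, 1.18 after A and 1.22 after G. For the shares of single dinucleotides without UV, 3 of the 4 ending in T had ratios below 1. All 4 ending in C and 7 of the 8 ending in a purine had ratios above 1. The exceptions were CT at 1.05 and TA at 0.975. Dinucleotides with no G or C made up 41.9% of the reads in *rad16*Δ and 45.3% in WT yeast after UV, and 45.3% in *rad16*Δ and 48.5% in WT yeast without it. The base composition of the counted dinucleotides therefore moved with the strain in both pairs of libraries. Its part in the differences at single dinucleotides was not tested.

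Comparison with the reverse complement removed library size and genome composition, since both sequences of such a pair occur equally often on the 2 strands. The reverse complement of a Dipyr sequence holds no pyrimidine pair. The *rad16*Δ library had 23.1 TC reads for each GA read (23.05–23.20) and the WT library 23.4 (23.28–23.48), a ratio between strains of 0.989 (0.984–0.995). There were 8.11 TT reads per AA read in the *rad16*Δ library (8.09–8.13) and 9.59 in the WT library (9.56–9.62), a ratio of 0.846 (0.843–0.849). By this measure TC was almost equal in the strains and the lower value at TT remained. CC over GG stood at 8.67 in *rad16*Δ and 8.89 in WT yeast (ratio 0.975), and CT over AG at 4.10 in *rad16*Δ and 4.35 in WT yeast (ratio 0.944). The pairs outside the Dipyr sequences had smaller excesses. TG over CA stood at 2.07 in *rad16*Δ and 2.18 in WT yeast (ratio 0.951), and AC over GT at 1.47 in *rad16*Δ and 1.48 in WT yeast (ratio 0.990). All 6 ratios were lower in *rad16*Δ yeast. The purine-purine dinucleotides, which serve as the denominators for the Dipyr sequences, made up 6.66% of the *rad16*Δ reads and 6.26% of the WT reads. Pooled Dipyr reads were 10.43 times the purine-purine reads in the *rad16*Δ library and 11.2 times in the WT library, a ratio of 0.931 (0.929–0.933).

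**Figure D2:**
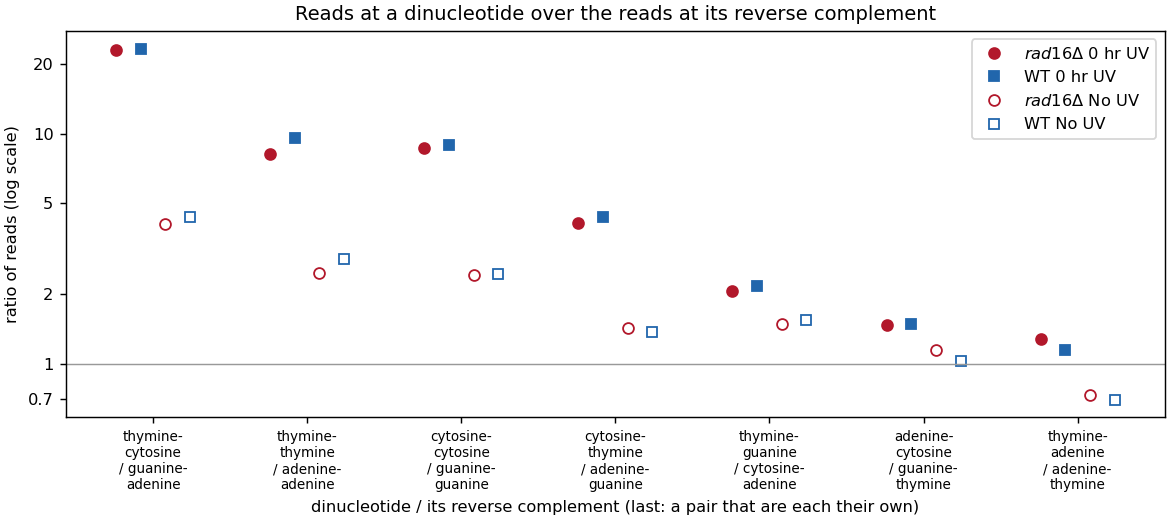
Reads at a dinucleotide over reads at its reverse complement (log scale), with thymine-adenine over adenine-thymine last, in *rad16*Δ (red circles) and WT yeast (blue squares), 0 hr UV filled and No UV open, with 1 library per point. The irradiated *rad16*Δ points lie below the irradiated WT points for all 6 reverse-complement pairs, from 23.1 in *rad16*Δ and 23.4 in WT yeast for thymine-cytosine to 1.47 in *rad16*Δ and 1.48 in WT yeast for adenine-cytosine.

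The unirradiated pair again gave the scale for these values. The unirradiated libraries had a Dipyr excess of their own, at 2.56 Dipyr reads per purine-purine read in *rad16*Δ and 2.78 in WT yeast. Its source was not tested, and dividing by these libraries or subtracting their reads takes it out too. Without UV, 4 of the 6 ratios were lower in *rad16*Δ yeast. TT over AA stood at 2.47 in *rad16*Δ and 2.86 in WT yeast, a ratio of 0.864, close to that after UV. TC over GA stood at 4.03 in *rad16*Δ and 4.32 in WT yeast, a ratio of 0.933. The increase with UV in TC over GA was therefore 5.73 times in the *rad16*Δ library and 5.41 times in the WT library. For TT over AA it came to 3.28 times in *rad16*Δ and 3.35 times in WT yeast, and for CC over GG to 3.57 times in *rad16*Δ and 3.63 times in WT yeast. For CT over AG it came to 2.88 times in *rad16*Δ and 3.16 times in WT yeast. The pooled Dipyr reads over purine-purine reads rose 4.07 times in *rad16*Δ and 4.04 times in WT yeast. Relative to its own unirradiated library, the pooled Dipyr excess was thus within 1% between strains, while TC gained more and CT less in *rad16*Δ yeast. The largest difference between strains among the 6 pairs was outside the Dipyr sequences. AC over GT rose 1.28 times in *rad16*Δ and 1.45 times in WT yeast. TG over CA rose 1.39 times in *rad16*Δ and 1.41 times in WT yeast.

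Among the Dipyr reads alone, TC and TT changed places between the strains. TC made up 45.3% of the Dipyr reads in the *rad16*Δ library (45.30%–45.34%) and 41.8% in the WT library (41.79%–41.85%), a difference of 3.50 percentage points (3.46–3.53). TT made up 37.8% in the *rad16*Δ library (37.73%–37.78%) and 41.9% in the WT library (41.86%–41.92%), a difference of -4.14 points (-4.17 to -4.10). CC made up 8.99% in *rad16*Δ and 8.34% in WT yeast, 0.651 points more. CT made up 7.93% in *rad16*Δ and 7.95% in WT yeast, and the interval of that difference included 0 (-0.033 to 0.006 points). The unirradiated libraries differed in the same direction at TC, TT and CC, by 2.10, -4.06 and 1.06 points. At CT the unirradiated difference was 0.904 points. After subtraction of the reverse-complement reads of the same library, which needs no unirradiated control, TC made up 47.96% in *rad16*Δ and 43.95% in WT yeast, and TT made up 36.6% in *rad16*Δ and 41.2% in WT yeast. When the thymine-first Dipyr sequences were set against the cytosine-first ones, TC over CC stood at 5.04 in *rad16*Δ and 5.01 in WT yeast, a ratio of 1.01 (1.002–1.008). TT over CT stood at 4.76 in *rad16*Δ and 5.27 in WT yeast, a ratio of 0.903 (0.9002–0.9053). After UV, TC and CC therefore kept nearly the same proportion in both strains, and TT had the lowest *rad16*Δ over WT ratio of the Dipyr sequences. In the No UV libraries, the ratio between strains was 0.958 for TC over CC and 0.848 for TT over CT.

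**Figure D3:**
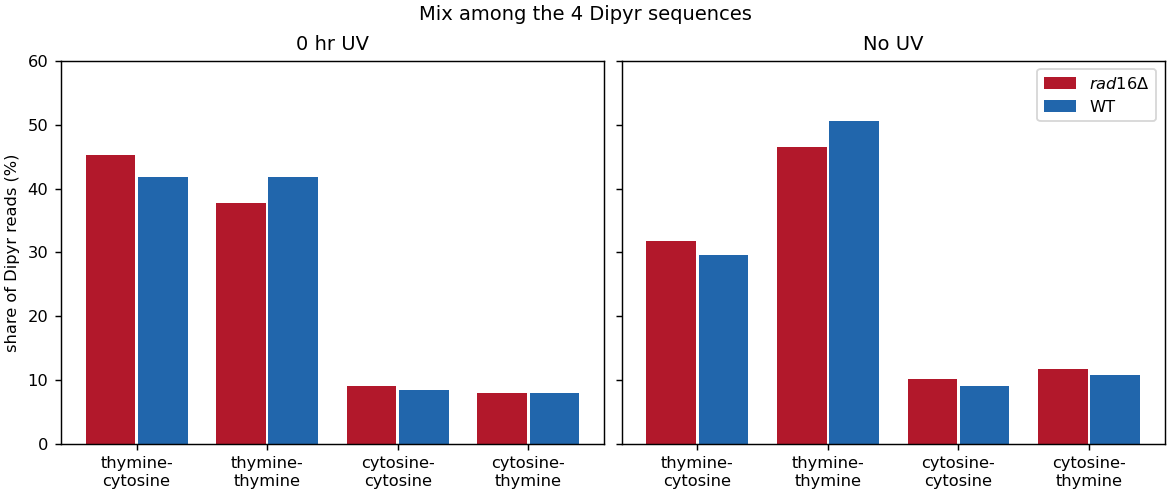
Share of the pooled Dipyr reads (%) at each of the 4 Dipyr sequences, named by first and second base, in *rad16*Δ (red, left bars) and WT yeast (blue, right bars), for the 0 hr UV libraries (left) and the No UV libraries (right), with 1 library per bar. After UV, thymine-cytosine was the largest class in *rad16*Δ yeast at 45.3%, while thymine-cytosine and thymine-thymine were nearly equal in WT yeast at 41.8% and 41.9%.

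The order of the dinucleotides by reads differed between strains at 7 of the 16. Besides the exchange of TC and TT, AT had rank 6 in *rad16*Δ and rank 4 in WT yeast, which placed it below CC and CT in *rad16*Δ yeast and above both in WT yeast. AG and GA exchanged ranks 12 and 13. Set against how often each dinucleotide occurs in the nuclear genome, TC held 5.05 times its genomic share in *rad16*Δ and 4.71 times in WT yeast. TT held 2.43 times its genomic share in *rad16*Δ and 2.72 times in WT yeast, and CC held 1.61 times in *rad16*Δ and 1.504 times in WT yeast. These 3 were the dinucleotides above their genomic share in both irradiated libraries. They were above it in both No UV libraries too, as was AT. Without UV, TC held 2.22 times its genomic share in *rad16*Δ and 2.15 times in WT yeast. After UV, CT stood at 0.945 times in *rad16*Δ and 0.955 times in WT yeast, and TA at 0.947 times in *rad16*Δ and 0.934 times in WT yeast. GG was lowest, at 0.185 times in *rad16*Δ and 0.169 times in WT yeast. On this scale TC ranked first in both strains, and CT and TA exchanged ranks 4 and 5.

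The whole spectra of the irradiated strains differed by 3.76 percentage points, taken as the sum of the differences at the dinucleotides with a higher share in one of them. The unirradiated *rad16*Δ and WT libraries differed by 3.61 points. The change with UV was larger, at 25.9 points in *rad16*Δ yeast and 25.01 points in WT yeast. The *rad16*Δ over WT ratios of the irradiated pair were similar to those of the unirradiated pair, with which it shares no library. The log2 ratios had a Pearson correlation of 0.873 and a Spearman correlation of 0.800 over the 16 dinucleotides, and 13 of the 16 lay on the same side of 0. Over the 12 dinucleotides outside the Dipyr sequences, Pearson's r was 0.849. The 16 values of a pair share their libraries and sum to a fixed total, so these correlations are a description. The SD of the log2 ratios was 0.11 after UV and 0.12 without it. CG, the highest after UV at 1.22, was also highest without UV at 1.20, and TT was lowest in both pairs, at 0.893 after UV and 0.888 without it.

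**Figure D4:**
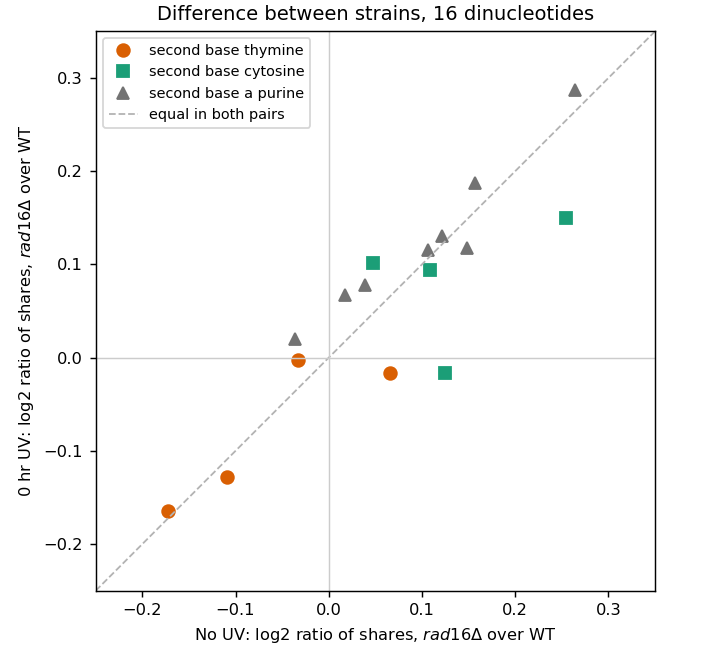
Log2 ratio of library shares, *rad16*Δ over WT, in the 0 hr UV pair (vertical axis) against the No UV pair (horizontal axis), for 16 dinucleotides marked by their second base, with 1 library per strain and treatment. Pearson's r was 0.873. Adenine-cytosine, guanine-cytosine and cytosine-thymine lie furthest from the line of equality, all below it. The 4 dinucleotides ending in thymine lie below 0 on the vertical axis.

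Dividing the ratio of the irradiated pair by that of the unirradiated pair left 13 of the 16 dinucleotides within 5% of 1. The 3 others had a lower *rad16*Δ over WT ratio after UV than without it. They were AC at 0.906 (0.902–0.911), GC at 0.9301 (0.922–0.938) and CT at 0.945 (0.941–0.949). At GC the *rad16*Δ share was still the higher one in both pairs, with a ratio of 1.11 after UV and 1.19 without it. The highest values were 1.04 (1.036–1.044) at TA and 1.04 (1.036–1.041) at TC. At TT the value was 1.01 (1.003–1.008), so the lower TT share in *rad16*Δ yeast was about as large without UV as after it. For TC over TT, the *rad16*Δ over WT ratio was 1.20 after UV and 1.16 without it, which left a ratio of 1.03 (1.029–1.036).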

How the data were processed

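UVDE-seq was carried out on haploid *rad16*Δ and WT yeast. The authors sequenced on the Ion Proton, mapped with bowtie2 and deposited read counts at the 16 dinucleotides next to the read ends, not normalized and without positions. The submitters' processing notes name Bowtie2 2.2.6, SAMtools, bedtools and sacCer3. Mapping filters and the treatment of duplicate reads are not given in the sources used here. Library totals ranged from 9697523 to 24921495 reads.

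Shares were given Wilson intervals, and ratios of shares or of reads log-scale Poisson intervals, all at 95%. Differences in the Dipyr mix were given normal intervals. No count model was run. With 1 library per strain and treatment, a comparison at 0 hr leaves no residual degrees of freedom, and an additive model over all 4 libraries would take the strain-by-UV difference as its error. Occurrences in the 16 nuclear chromosomes of R64 were counted over both strands, with the mitochondrial genome added as an alternative. The comparisons and dinucleotides were chosen with earlier results of these data known. All 16 dinucleotides were described. Full values were given for the Dipyr sequences, TA and AT. Of those left after the reverse complements of the Dipyr sequences were set aside, the 2 highest and the 2 lowest ratios were named. Others were added after their values were seen. Alternatives were other scalings of the libraries, subtraction of background reads and division by genomic occurrence. Python 3.11.15, scipy 1.17.1 and matplotlib 3.10.9 were used.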

Additional observations from a re-analysis of the deposited data

Results flagged for a closer look

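Some *rad16*Δ over WT ratios lay on opposite sides of 1 in the irradiated and the unirradiated pair, with intervals that left out 1 in both. With 1 library per strain and treatment, these differences were not tested. For shares of the library, the ratio at CT was 0.989 after UV and 1.05 without it, and at AC it was 0.988 after UV and 1.09 without it. At TA it was 1.01 after UV and 0.975 without it. For reads over reads at the reverse complement, CT over AG had a ratio of 0.944 after UV and 1.03 without it, and AC over GT had a ratio of 0.990 after UV and 1.12 without it. The reverse complements themselves had share ratios of 1.05 (AG) and 0.998 (GT) after UV.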

How the results depend on the processing

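The higher TC and lower TT share among Dipyr reads in *rad16*Δ yeast kept their direction under all 5 alternatives, but not all 5 could have reversed it. Dividing by occurrence applies the same values to both strains. Of the Dipyr sequences, TC had the highest *rad16*Δ over WT ratio of shares (1.073) and TT the lowest (0.893). Such a division therefore cannot reverse either direction, and only the subtractions of reads could have done so. The difference at TC was 4.002 points with reverse-complement reads subtracted, 3.91 and 3.71 points with No UV reads subtracted (purine-purine or GG, GC and CG scaling), and 2.76 and 2.75 points per nuclear occurrence without and with the mitochondrial genome. At TT these values were -4.59, -4.13, -3.95, -3.31 and -3.30 points. The pooled Dipyr ratio, *rad16*Δ over WT, was 0.931 scaled by purine-purine reads, 0.871 by GG, GC and CG reads, 0.933 by the median ratio and 0.968 by reads outside the Dipyr sequences, but 1.03 when set against the No UV ratio. Pooled Dipyr over purine-purine reads was 1.01 against the No UV ratio. It was 0.948 with No UV reads (GG, GC and CG scaling) subtracted from the Dipyr reads only. Ranks differed between strains at 4 dinucleotides per occurrence, and at 7 by reads.

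Some ratios crossed 1 under an alternative. A scaling multiplies all 16 by 1 factor, while division by the No UV ratio uses a different one for each. Scaled by GG, GC and CG reads, the ratio became 0.943 at TC, 0.939 at CC, 0.892 at TA, 0.952 at TG, 0.975 at GC, 0.928 at AA, 0.921 at AG, 0.954 at GA and 0.962 at GG. Scaled by purine-purine reads it became 0.953 at TA, 0.992 at AA and 0.985 at AG, and by the median ratio 0.955 at TA, 0.994 at AA and 0.987 at AG. Scaled by reads outside the Dipyr sequences it was 0.992 at TA. Set against the No UV ratio it became 1.01 at TT, 0.990 at CC, 0.9301 at GC and 0.979 at GA. TC over GA became 1.06 against the No UV ratio. With No UV reads subtracted from the numerator only, TC over GA became 1.00 and TG over CA became 1.01.

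Counting intervals were narrow, although those of GT and of the CT difference in the mix included no change, and they are too narrow if reads are PCR copies. No paired analysis was run and no replicate was left out, because each strain and treatment had 1 library.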
